A study of Mus musculus with 9 samples.

Results

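The comparison set every array of alpha-irradiated osteoblastic cells against the arrays of unirradiated cells. It used all 9 arrays of the series: the 3 arrays at 0.5 Gy and the 3 arrays at 1 Gy of alpha particles were taken as 1 irradiated group of 6, and the 3 arrays at 0 Gy were the controls. The cells came from freshly isolated bone marrow of male C57BL/6 mice aged 8 weeks. Before use, cells of every group spent 7 days in culture and a further 7 days in differentiation medium with β-glycerophosphate, ascorbic acid 2-phosphate and dexamethasone. Alpha particles were given at 0.22 Gy/min (the interval between exposure and RNA collection: not given in the sources used here). No label says that arrays of a dose came from separate mice or cultures, so p-values measure only the spread between these arrays, which may be technical. Each one-colour array carried 4415 probes for 1881 mouse miRNAs, and the value of a miRNA was its summed probe signal, scaled between arrays and given as log2.

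miRNAs are short RNAs cut from hairpin precursors. One strand, from the 5′ side (-5p) or the 3′ side (-3p) of the hairpin, is loaded into an Argonaute protein, and bases 2 to 8 of that strand, the seed, pair with target mRNAs and lower their translation and stability. In osteoblasts, which build bone, miRNAs such as the miR-23, miR-30 and miR-199 families are known to restrain Runx2 or BMP signalling, while the miR-29 family is known to favour differentiation. Alpha particles deposit their energy densely along short tracks and cause clustered DNA damage, and miR-34a is the best known miRNA target of the p53 damage response.

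The mature sequences below are those of miRNAs on which the comparison turns, in RNA letters, 5′ to 3′, with the seed in capitals; they are from RefSeq (GRCm38.p6). The 6 miRNAs that follow were higher in the mean of the irradiated arrays. The first pair shares the seed CCCUGAG.
miR-125a-5p: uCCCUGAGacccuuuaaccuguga
miR-125b-5p: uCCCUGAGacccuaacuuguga
miR-99b-5p: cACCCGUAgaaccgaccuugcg
miR-365-3p: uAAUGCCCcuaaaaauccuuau
miR-193b-3p: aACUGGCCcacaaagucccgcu
miR-574-3p: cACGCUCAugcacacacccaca

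The 4 miRNAs that follow were lower in the mean of the irradiated arrays. They are shown for the contrast in their bases with the set above.
miR-125a-3p: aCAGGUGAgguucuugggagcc
miR-149-3p: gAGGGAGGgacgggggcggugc
miR-370-3p: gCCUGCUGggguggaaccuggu
miR-6385: gCAAGGAUgacagagaggaag

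Some of these lie together in the genome. On chromosome 17, miR-99b-5p (chr17:17830194-17830215, plus strand) lies 601 bases before miR-125a-5p (chr17:17830817-17830840, plus strand), and both lie within the span of the protein-coding gene Spaca6. miR-125a-3p (chr17:17830855-17830876) is the other arm of the miR-125a hairpin. On chromosome 16, miR-193b-3p (chr16:13449570-13449591, plus strand) lies 4303 bases before 1 of the loci of miR-365-3p (chr16:13453895-13453916), within the spans of the lncRNA genes Gm32817 and Gm53058. miR-574-3p (chr5:64970364-64970385, plus strand) lies within the span of Fam114a1, and miR-149-3p (chr1:92850421-92850442, plus strand) within that of Gpc1, which encodes the heparan sulfate proteoglycan glypican.

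The arrays of a dose differed strongly from each other. The scanner software marked 378, 213 and 241 miRNAs as detected at 0 Gy, against 366, 233 and 260 at 0.5 Gy and 273, 279 and 293 at 1 Gy. The means were 277 ± 88.3 (SD, n = 3) at 0 Gy and 284 ± 45.0 (SD, n = 6) in the irradiated group, a difference within the spread (exact permutation test over arrays, two-sided p = 0.905). Array 1 of 0.5 Gy and array 1 of 1 Gy stood apart: over tested miRNAs they correlated with each other at r = 0.959 and with the other 7 arrays at -0.157 to 0.495. Their additive error, the software's estimate of background noise, was 19.4 and 11.2, against 1.60 to 2.83 on the other arrays. Array 1 of 0 Gy stood apart in another way, as miR-494-3p alone took 52.97% of its signal. A high signal there was not always a detected one: of the 12 higher miRNAs of smallest p, 4 lacked a detection call on the first array of 0.5 Gy and 5 lacked one on the first array of 1 Gy. Results were therefore also computed without these arrays. A miRNA was tested where it was detected on at least 3 of the 9 arrays, whatever their dose, and 387 passed; 1240 were detected on no array and 39 on all 9.

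No miRNA was called at an adjusted p under 0.05. Of the 387 tested miRNAs, 0 were called by limma with Benjamini-Hochberg adjustment (0%), and the smallest adjusted p was 0.454. An unadjusted p under 0.05 was reached by 9 (2.33%), fewer than the 19.35 that p-values spread evenly would give. Of these, 7 were higher after irradiation (miR-30d-5p, miR-125a-5p, miR-365-3p, miR-6366, miR-199a-5p, miR-3963 and miR-99b-5p) and 2 were lower (miR-712-5p and miR-370-3p). The mean was higher in the irradiated group for 241 miRNAs (62.3%) and lower for the rest, with a median difference of 0.75 on the log2 scale. That shift moved with the scaling: it was 0.09, with 211 higher, when arrays were scaled on all probes, and 0.08, with 209 higher, under quantile normalization. It was -0.02, with 121 of 244 higher, without array 1 of every dose. It turned with the filter on detection too: it was -0.51, with 52 of 182 higher, among miRNAs that every array of some dose detected, and -0.22, with 103 of 235 higher, among those with at least 5 detections. The arrays lay on 3 slides. Slide 1 held arrays 1 and 3 of every dose, slide 2 array 2 of 0.5 Gy and of 1 Gy, and slide 3 array 2 of 0 Gy alone. Within the slide that held 6 arrays, 2 of each dose, limma called 0 miRNAs and 2 had an unadjusted p under 0.05. With the slide as a block it called 0 and 8 had one. Slides 2 and 3 each held only irradiated or only control arrays, so the block rests on slide 1 and is no separate check. Slide 1 also keeps the arrays 1 that stood apart.

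The doses were also compared with 0 Gy one at a time in a fit with 3 dose groups. They share the 0 Gy arrays, so a like difference at both is partly built in. At 0.5 Gy 0 miRNAs were called (smallest limma adjusted p 0.593) and at 1 Gy 0 (0.617), so that 0 were called at both (0%). An unadjusted p under 0.05 was reached by 4 miRNAs at each dose and by 1 at both.

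Only 5 of the 387 tested miRNAs separated the groups array by array. All 6 irradiated arrays lay above all 3 arrays of 0 Gy for 2 miRNAs (0.517%), and below them for 3 (0.775%). For these 5 the exact permutation p was 0.0238, the smallest that the 84 ways to choose 3 of 9 arrays can give, and limma's adjusted p was 0.454 for each.

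miR-30d-5p, a member of the miR-30 family that restrains Runx2 and Smad1, had log2 signals of 3.34, 2.87 and 4.01 at 0 Gy. They were 5.84, 5.04 and 4.16 at 0.5 Gy, and 4.75, 4.51 and 4.60 at 1 Gy. The lowest irradiated array lay only just above the highest control array. It was not marked as detected on array 2 of 0 Gy, nor on array 1 of either irradiated dose; its highest signal, 5.84, was among these. The difference was 1.41 ± 0.48 (SE; 1.61 at 0.5 Gy and 1.21 at 1 Gy), and it was 0.99 without array 1 of every dose.

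miR-574-3p had log2 signals of 3.84, 4.19 and 4.61 at 0 Gy, against 7.08, 4.70 and 4.79 at 0.5 Gy and 5.96, 4.73 and 4.63 at 1 Gy. The groups were almost in contact, and array 1 of each irradiated dose was highest. It was marked as detected on arrays 2 and 3 of every dose and on array 1 of none, so its highest signals were not detected ones. The difference was 1.1 ± 0.63 (SE) and 0.17 without array 1 of every dose. Its sign turned when arrays were scaled on all probes (-0.15) and under quantile normalization (-0.26).

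miR-712-5p had log2 signals of 6.62, 4.66 and 4.20 at 0 Gy, against 2.79, 3.14 and 3.98 at 0.5 Gy and 2.79, 4.04 and 3.27 at 1 Gy. The value 2.79 is the floor, the 1st percentile of detected signals, and stood for any lower signal. All 3 control arrays were higher than every irradiated array, and array 1 of 0 Gy was highest. The difference was -1.82 ± 0.61 (SE; -1.86 at 0.5 Gy and -1.79 at 1 Gy) and -0.97 without array 1 of every dose.

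miR-149-3p had log2 signals of 4.98, 4.08 and 3.83 at 0 Gy, against 2.79, 3.76 and 3.77 at 0.5 Gy and 2.79, 3.83 and 2.79 at 1 Gy. Arrays 2 and 3 of 0.5 Gy and array 2 of 1 Gy reached close to the lowest control array. The difference was -1.01 ± 0.48 (SE), and -0.59 without array 1 of every dose.

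miR-125a-3p had log2 signals of 5.62, 6.06 and 5.48 at 0 Gy, against 5.29, 5.18 and 5.17 at 0.5 Gy and 4.15, 5.48 and 4.52 at 1 Gy. The 1 Gy arrays spread most, and array 2 of 1 Gy met the lowest control array to 2 decimals. The difference was -0.76 ± 0.43 (SE; -0.51 at 0.5 Gy and -1.0 at 1 Gy) and was -0.83 without array 1 of every dose.

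Single arrays changed this count. Fewer arrays make non-overlap easier to reach, so a rise is partly built in. Leaving out array 3 of 0 Gy raised the count to 53 of 382 tested miRNAs (30 above and 23 below). Leaving out array 1 of 0 Gy gave 9 of 346, and array 2 of 0 Gy gave 8. Leaving out array 3 of 0.5 Gy gave 15, and array 2 of 1 Gy gave 16. Without array 1 of every dose it was 19 of 244 (5 above and 14 below). Among the 19 were miR-30d-5p, miR-712-5p, miR-125a-3p and miR-149-3p but not miR-574-3p.

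**Figure D1:**
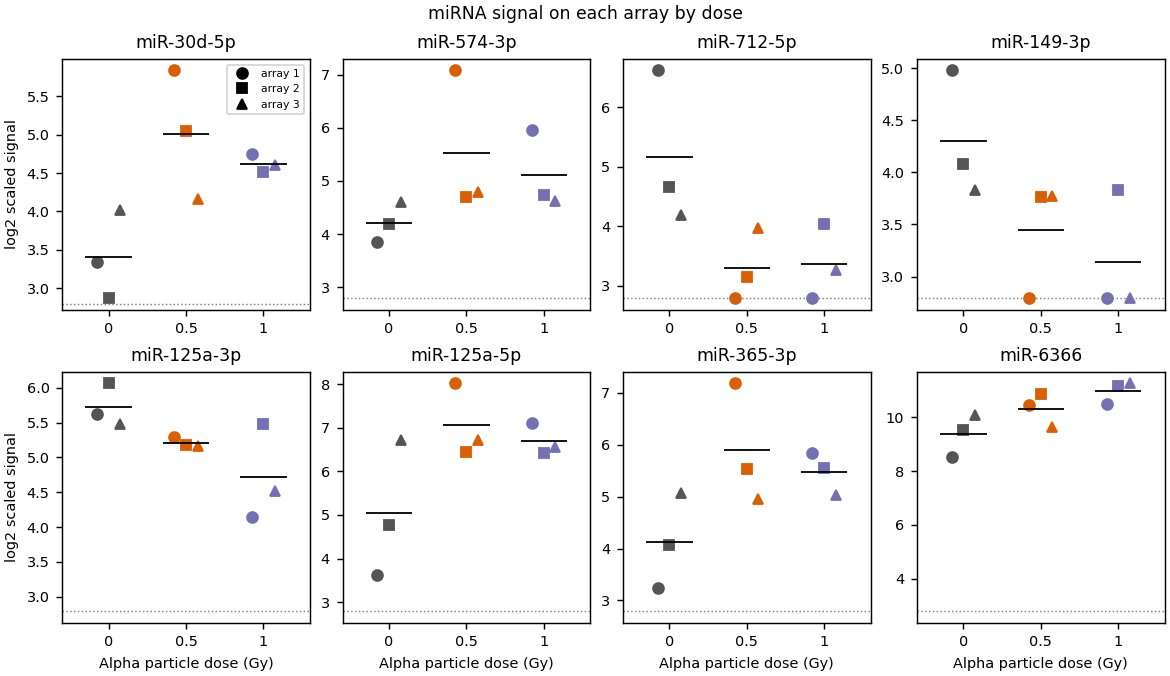
Log2 scaled signal (vertical axes, each with its own range) of 8 miRNAs on each array by dose in Gy; circles, squares and triangles are arrays 1, 2 and 3, bars are the means of a dose and the dotted line is the floor at 2.79. The 5 miRNAs whose groups did not overlap come first; for miR-125a-5p, miR-365-3p and miR-6366, array 3 of 0 Gy lies among the irradiated arrays.

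Among the other miRNAs of smallest p, array 3 of 0 Gy repeatedly resembled the irradiated arrays. miR-125a-5p, known to target the ubiquitin-editing enzyme A20 in NF-kB signalling, had log2 signals of 3.63, 4.77 and 6.71 at 0 Gy, against 8.01, 6.45 and 6.72 at 0.5 Gy and 7.11, 6.42 and 6.57 at 1 Gy. The groups overlapped through array 3 of 0 Gy. Its difference was 1.84 ± 0.69 (SE), the largest of the 12 higher miRNAs of smallest p, and fell to 1.14 without array 1 of 0 Gy and to 0.66 without array 1 of every dose.

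Its neighbour miR-99b-5p had log2 signals of 2.79, 2.79 and 4.64 at 0 Gy, against 5.89, 4.01 and 4.55 at 0.5 Gy and 4.59, 5.07 and 4.47 at 1 Gy, a difference of 1.36 ± 0.59 (SE). Again only array 3 of 0 Gy reached the irradiated arrays, and it was not marked as detected on array 1 of any dose or on array 2 of 0 Gy. miR-125b-5p, which shares the seed of miR-125a-5p and is known to restrain osteoblast differentiation, differed by 1.55 ± 0.75 (SE), with signals of 5.51, 7.35 and 9.29 at 0 Gy against 8.18 to 9.34 on the irradiated arrays.

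The pair from chromosome 16 differed by like amounts. miR-365-3p, linked to cartilage and bone cell responses to load, had log2 signals of 3.25, 4.07 and 5.08 at 0 Gy, against 7.18, 5.53 and 4.96 at 0.5 Gy and 5.85, 5.55 and 5.03 at 1 Gy, a difference of 1.55 ± 0.61 (SE). miR-193b-3p differed by 1.46 ± 0.69 (SE). In both, array 1 of 0.5 Gy was highest and array 1 of 0 Gy lowest, and miR-365-3p was not marked as detected on array 1 of 1 Gy. The differences were 0.55 and 0.40 without array 1 of every dose.

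miR-199a-5p, a mesenchymal miRNA encoded in the Dnm3os transcript and at a second locus, differed by 1.43 ± 0.60 (SE) and was marked as detected on array 1 of no dose. miR-92a-3p, of the miR-17 cluster, differed by 1.69 ± 0.78 (SE), and miR-3473b by 1.41 ± 0.67 (SE; 0.83 at 0.5 Gy and 1.98 at 1 Gy). miR-6366 and miR-3963 differed by 1.26 ± 0.52 and 1.54 ± 0.65 (SE). For miR-6366 the values were 8.53, 9.54 and 10.07 at 0 Gy, against 10.45, 10.87 and 9.65 at 0.5 Gy and 10.48, 11.16 and 11.25 at 1 Gy, so that 1 irradiated array lay within the control range. Scaled on all probes, miR-6366 differed by only 0.01.

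miR-3968 was detected on no array of 0 Gy and on 3 of the 6 irradiated arrays. It was at the floor of 2.79 on all 3 control arrays, against 6.29, 3.98 and 2.79 at 0.5 Gy and 5.09, 3.87 and 4.17 at 1 Gy. The arrays that detected it were array 2 of 0.5 Gy and arrays 2 and 3 of 1 Gy; its highest signals, on array 1 of both doses, were not marked as detected.

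Among the lower miRNAs of smallest p, miR-370-3p, miR-6385, miR-6238 and miR-135a-1-3p shared a pattern: array 1 of 0 Gy was highest and array 1 of each irradiated dose lowest. miR-370-3p, from the imprinted Dlk1-Dio3 region on chromosome 12, had log2 signals of 8.53, 5.42 and 6.00 at 0 Gy, against 2.79, 5.00 and 5.86 at 0.5 Gy and 3.46, 5.15 and 4.83 at 1 Gy, a difference of -2.13 ± 0.88 (SE). miR-6385, which lies within the span of Pml, had 10.05, 5.83 and 5.63 at 0 Gy, against 2.79, 5.58 and 5.69 at 0.5 Gy and 2.79, 5.64 and 5.33 at 1 Gy, a difference of -2.53 ± 1.16 (SE). On arrays 2 and 3 the doses were close together for miR-6385. For miR-370-3p array 3 of 1 Gy, at 4.83, lay below array 3 of 0 Gy, at 6.00. Without array 1 of every dose the differences were -0.64 for miR-370-3p and -0.31 for miR-6385.

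miR-6238 (-1.93) and miR-135a-1-3p (-2.19) had the same shape, with differences of -0.26 and -0.23 without array 1 of every dose. The remaining lower miRNAs of smallest p, miR-6934-5p, miR-7058-5p, miR-7226-5p, miR-7221-3p, miR-7011-5p and miR-3620-5p, differed by -0.87 to -1.95.

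**Figure D2:**
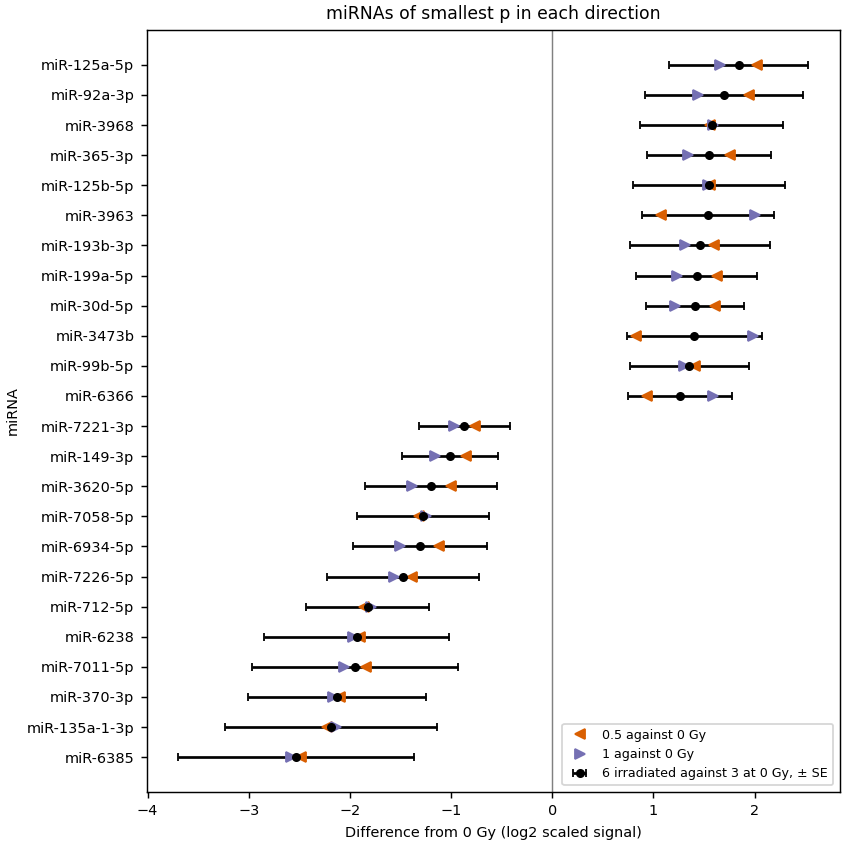
Difference from 0 Gy in log2 scaled signal (horizontal axis) for the 12 higher and 12 lower miRNAs of smallest p; black points with bars are the 6 irradiated against the 3 unirradiated arrays ± SE, and the triangles are each dose against the same 0 Gy arrays. Both doses lie on the same side of 0 for each miRNA shown, from miR-6385 at -2.53 to miR-125a-5p at 1.84, and 0 passed the adjusted threshold.

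Detection calls gave no gained miRNA. A miRNA counted as gained where it was detected on 0 of 3 arrays at 0 Gy and at least 2 of 3 arrays at each dose, and as lost where it was detected on all 3 at 0 Gy and at most 1 of 3 at each dose. By this rule 0 were gained and 5 were lost. miR-712-5p was detected on 3 of 3 control arrays and on 1 of 6 irradiated arrays, at 1 Gy (Fisher's exact test, two-sided p = 0.0476). miR-3077-5p, miR-3093-3p, miR-7056-5p and miR-710 were each detected on 3 of 3 control arrays and on 1 array of each dose (exact p = 0.167). Of 602 miRNAs detected on 1 to 8 arrays, 0 were called after Benjamini-Hochberg adjustment of the exact tests (0%; all adjusted values 1), and 1 had an unadjusted p under 0.05.

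miR-3093-3p, among the lost, had log2 signals of 3.15, 2.96 and 2.90 at 0 Gy against a floor of 2.79, and miR-7056-5p was at the floor on 1 of the control arrays that detected it. Of the 5 lost miRNAs only miR-712-5p exceeded a difference of 1. The counts changed with the arrays used, and so did the rule. With 2 control arrays left, the rule asked for detection on neither (gained) or both (lost), which is easier to meet. By it 6 were gained and 5 lost without array 1 of 0 Gy, and 18 gained and 12 lost without array 3 of 0 Gy. With 2 arrays of an irradiated dose left, lost asked for detection on neither, which is stricter. By that rule 1 was lost without array 1 or 2 of 0.5 Gy, and 0 without array 1 or 3 of 1 Gy. miR-3077-5p, miR-3093-3p, miR-7056-5p and miR-710 dropped out by it, although those arrays had not detected them.

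Read the other way, 641 miRNAs were detected on any array. Of these, 204 were detected on irradiated arrays only, of which there were 6, and 37 on control arrays only, of which there were 3. Of the 204, 115 were detected on 1 irradiated array, 83 on 2 and 6 on 3, and none on more. By array, 98 of them were detected on array 1 of 0.5 Gy alone, and 79 on that array and array 1 of 1 Gy alone. Of the 37, 36 were detected on array 1 of 0 Gy alone.

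miRNA lists were described by their counts beside the 241 of 387 (62.3%) that were higher among all tested miRNAs, with a median of 0.75. In each list 0 members were called. The let-7 family, which restrains proliferation and stem cell programmes, had 8 of 8 tested members higher, with a median difference of 0.85. Their mean log2 signal was 3.93, 5.39 and 8.20 at 0 Gy, against 4.94, 7.63 and 8.05 at 0.5 Gy and 5.30, 7.78 and 7.67 at 1 Gy. Array 3 of 0 Gy had the highest let-7 signal of all 9 arrays. Without array 1 of 0 Gy, 4 of 8 were higher and the median was 0.06; within the slide of 6 arrays it was 4 of 8 and 0.05. All 8 were higher, with a median of 0.84, without array 1 of every dose.

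let-7a-5p showed that spread in 1 miRNA, with 4.42, 7.05 and 9.60 at 0 Gy, against 7.31, 9.26 and 9.46 at 0.5 Gy and 7.65, 9.40 and 9.02 at 1 Gy. The control arrays spanned the whole range of the irradiated arrays. Its difference was 1.66 ± 1.04 (SE) and 0.36 without array 1 of 0 Gy.

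Of miRNAs known to respond to p53, 3 of 14 on the array were tested and all 3 were higher, with a median of 0.55. miR-34a-5p, a direct p53 target that lowers cyclins and BCL2, had log2 signals of 2.79, 4.31 and 6.76 at 0 Gy, against 6.07, 6.24 and 6.55 at 0.5 Gy and 5.30, 6.20 and 6.47 at 1 Gy. It was marked as detected on array 1 of no dose. Array 3 of 0 Gy held the highest value, and the difference was 1.52 ± 0.77 (SE; limma adjusted p 0.454, exact permutation p 0.167). It was 0.60 without array 1 of 0 Gy. miR-107-3p (0.55) and miR-16-5p (0.35) were the other tested members. Within the slide of 6 arrays only 1 of the 3 was higher and the median was -0.18; without array 1 of every dose 3 of 3 were higher and it was 0.68.

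miRNAs known to target DNA repair genes had 4 of 4 tested members higher, with a median of 0.52. They included miR-26a-5p (0.60) and miR-26b-5p (0.47), reported to target the damage kinase ATM. The miR-15/16 family, which restrains cyclins, had 3 of 3 higher, with a median of 0.35. The medians of these lists were 0.73 and 0.41 without array 1 of every dose. Within the slide of 6 arrays 0 of 3 and 1 of 3 were higher. Of 12 members of the miR-17 clusters, which favour proliferation, 3 were detected on any array. All 3 were tested and higher, with a median of 0.68, but 2 of 3 were higher without array 1 of every dose, with a median of 0.51. miR-25-3p was highest on array 1 of 0.5 Gy and of 1 Gy, where it was not marked as detected.

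miRNAs known to inhibit osteoblast differentiation had 15 of 15 tested members higher, with a median of 1.02, and 2 (miR-30d-5p and miR-199a-5p) had an unadjusted p under 0.05. It was 14 of 15, with a median of 0.47, without array 1 of 0 Gy, and 10 of 14, with a median of 0.80, within the slide of 6 arrays. It was 13 of 13, with a median of 0.70, without array 1 of every dose. Scaled on all probes it was 14 of 15, with a median of 0.37. Of the 15, miR-211-5p was detected on array 1 of every dose and array 3 of 1 Gy alone, which fixes much of its direction. miR-204-5p was detected on these arrays and on array 3 of 0 Gy. miR-30a-5p, of the same family as miR-30d-5p, had 2.79, 2.79 and 4.85 at 0 Gy, against 5.42, 4.67 and 4.70 at 0.5 Gy and 3.70, 4.58 and 4.52 at 1 Gy.

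Of 5 tested miRNAs known to favour osteoblast differentiation, 3 were higher and 2 lower, with a median of 0.36. miR-29a-3p and miR-15b-5p differed by 1.30 ± 0.80 and 1.63 ± 0.99 (SE). The 2 lower were miR-3960 (-0.63 ± 0.44) and miR-2861 (-0.38 ± 0.39), a cluster induced by Runx2, which were named after their values were seen. Without array 1 of every dose both had all irradiated arrays below both control arrays, with differences of -1.12 and -0.67.

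Of 9 NF-kB miRNAs on the array 3 were detected, and miR-146a-5p, miR-146b-5p and miR-155-5p were not among them. All 3 were tested and higher, with a median of 1.17, among them miR-223-3p (1.17). Within the slide of 6 arrays 2 of 3 were higher, with a median of 0.70. The miR-3473 family had 6 of 7 higher, with a median of 0.95, but 3 of 7 and a median of -0.02 when scaled on all probes or by quantiles. Of 31 miRNAs of the Dlk1-Dio3 cluster 3 were tested, and 1 was higher, miR-485-3p. Both miR-485-3p and miR-3473d were detected on array 1 of every dose and array 3 of 1 Gy alone, which fixes much of their direction. miR-494-3p of that cluster had 15.99 on array 1 of 0 Gy and 10.38 to 11.34 on the other 8 arrays; its difference of -1.38 became 0.41 without that array.

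**Figure D3:**
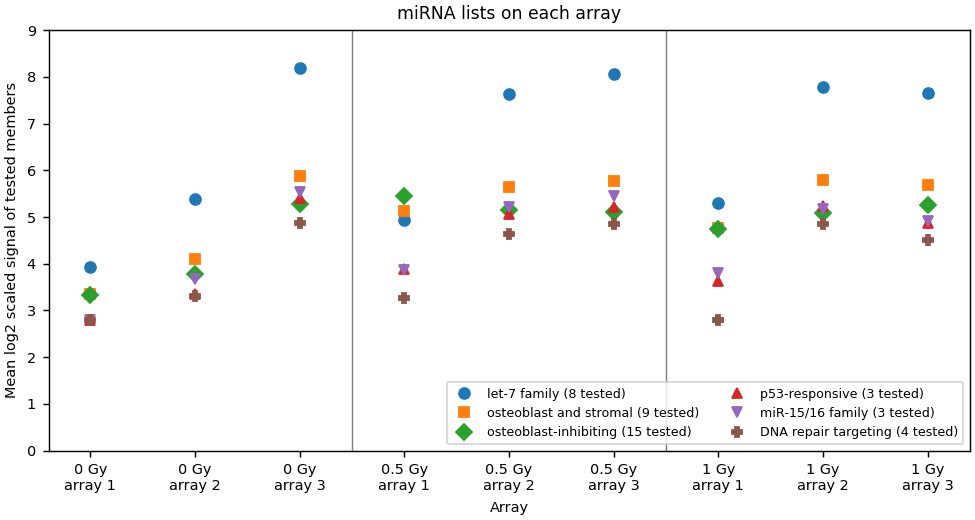
Mean log2 scaled signal of the tested members of 6 miRNA lists (vertical axis) on each of the 9 arrays, with vertical lines between doses. The let-7 family runs from 3.93 to 8.20 within the 3 arrays of 0 Gy alone, and array 1 of each dose is the lowest of its dose for it.

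Marker miRNAs of the labelled cells and of other cell types were read next. Of 17 stromal and osteoblast markers 11 were detected, and 9 of 9 tested were higher, with a median of 1.05; their mean ran from 3.35 to 5.89 at 0 Gy and from 4.77 to 5.80 on the irradiated arrays. Of 8 myeloid markers 2 were detected, miR-223-3p and miR-342-3p, and both were higher (1.17 and 1.42); their mean ran from 2.79 to 5.10 at 0 Gy and from 4.39 to 5.83 on the irradiated arrays, where neither was marked as detected on array 1 of either dose. Of 3 lymphoid markers miR-150-5p was detected on array 1 of 0.5 Gy alone and was not tested. The others, miR-181a-5p and miR-181b-5p, were higher by 0.85 and 0.91. The former of these turned to -0.41 when scaled on all probes and to -0.03 under quantile normalization. Erythroid and platelet, endothelial, epithelial, liver and neuronal markers were detected on no array, and of 3 muscle markers 1 was detected, on array 1 of each irradiated dose. In bulk RNA fewer cells of a type and less RNA per cell cannot be told apart, and the part of myeloid markers in the other differences was not tested.

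The direction of a difference went with the bases of the miRNA. Where guanine made up under 20% of the mature sequence, 131 of 134 tested miRNAs were higher, with a median difference of 1.62. With guanine at 20 to 40%, 73 of 96 were higher (median 0.69), and with guanine over 40%, 13 of 109 (median -0.67). The counts were 30 of 35, 51 of 72 and 27 of 106, with medians of 0.21, 0.40 and -0.23, without array 1 of every dose. Of the miRNAs under 20%, 70 had entered the test through array 1 of every dose and array 3 of 1 Gy alone. Another 31 tested miRNAs were detected on array 1 of every dose alone. Of these, 29 had a sequence, with a median of 16% guanine, and how many lay under 20% was not counted. Such entry fixes much of the direction of a difference, so the 131 of 134 is partly built in. Another 81 tested miRNAs, with a median of 45.5% guanine, were detected on every array but array 1 of 0.5 Gy and of 1 Gy. That pattern fixes much of their direction too, so the 13 of 109 is also partly built in. Without those arrays the counts were 40 of 43, 58 of 76 and 44 of 109, with medians of 0.46, 0.66 and -0.08. The 12 higher miRNAs of smallest p had a median of 18.2% guanine and 33.3% cytosine, and the 12 lower had 50% and 9.52%.

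The arms of single hairpins showed this within a precursor. Both arms were tested for 42 pairs of mature miRNAs. The arms differed from 0 Gy in opposite directions in 36 pairs, the 5p arm lower and the 3p arm higher in 31 and the reverse in 5. Both arms were higher in 6 pairs, and both were lower in 0. The arm with more guanine had the lower difference in 41 of 42 pairs, by a median of 2.05; miR-652 was the exception. In 19 of the 42 pairs an arm was detected on array 1 of every dose and array 3 of 1 Gy alone. Of the other 23 pairs 20 had opposite directions. Some of these 23 also had an arm, such as miR-7005-3p or miR-7002-3p, detected on array 1 of every dose alone. Such arms entered the test through arrays on which they were high, so the 20 are not free of that entry. Other arms, such as miR-7002-5p, were detected on every array but array 1 of 0.5 Gy and of 1 Gy, which fixes much of their direction too. Both arms of only 10 pairs were tested without array 1 of every dose. Of these, 7 had opposite directions and in 7 the arm with more guanine was lower, by a median of 0.59.

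In the miR-125a hairpin the 5p arm, with 16.7% guanine, differed by 1.84 and the 3p arm, with 40.9%, by -0.76; without array 1 of every dose they differed by 0.66 and -0.83. In the miR-574 hairpin, with the arms the other way round, miR-574-5p differed by -0.79 and miR-574-3p by 1.1; without array 1 of every dose they differed by -0.35 and 0.17. The miR-7011 hairpin showed the widest contrast, with -1.95 for the 5p arm and 1.74 for the 3p arm. Its arms are shown for their bases.
miR-7011-5p: aGGAGGAUgggagagggaggugu
miR-7011-3p: uCUGCUUCccuccuccucuag

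miR-7011-3p had log2 signals of 4.02, 2.79 and 2.79 at 0 Gy, against 8.94, 2.79 and 2.79 at 0.5 Gy and 7.69, 2.79 and 4.65 at 1 Gy. miR-7011-5p had 8.48, 5.91 and 5.90 at 0 Gy, against 2.79, 5.96 and 6.02 at 0.5 Gy and 2.79, 6.02 and 5.29 at 1 Gy. On array 1 of each irradiated dose miR-7011-3p was at the highest signal of its dose and miR-7011-5p was at the floor. The cause was not tested.

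**Figure D4:**
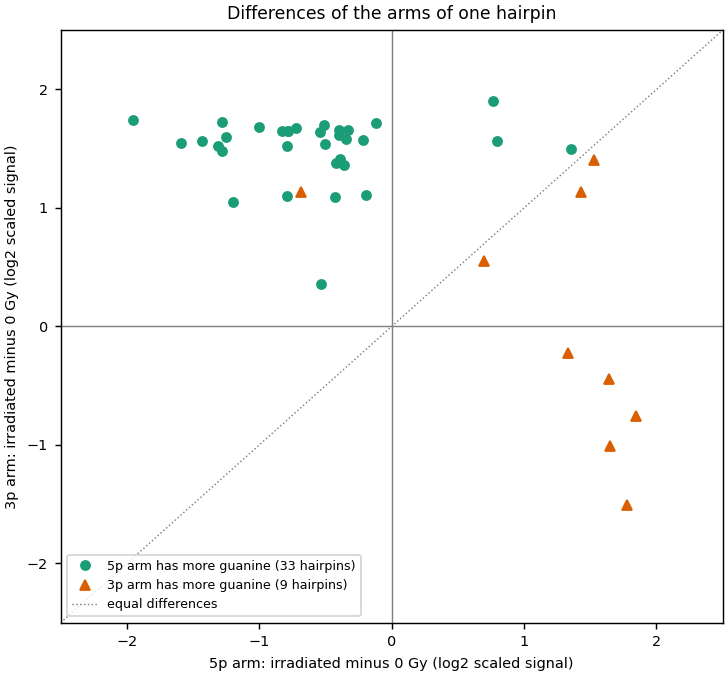
Irradiated minus 0 Gy difference in log2 scaled signal of the 5p arm (horizontal axis) and the 3p arm (vertical axis) of 42 hairpins; circles have more guanine in the 5p arm (33) and triangles in the 3p arm (9), and the dotted line marks equal differences. At the upper left (5p lower, 3p higher) lie 31 hairpins, and at the lower right (5p higher, 3p lower) lie 5.

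Sets of miRNAs with the same detection pattern, chosen after their values were seen, differed most on array 1 of 0.5 Gy and of 1 Gy. The largest set of tested miRNAs, 88 of them, was detected on array 1 of every dose and array 3 of 1 Gy and on no other array. Their median unscaled intensity was 23.7, 4.64 and 4.02 at 0 Gy, against 331, 3.94 and 2.34 at 0.5 Gy and 137, 2.94 and 19.2 at 1 Gy. This pattern fixes much of their direction, so no count of directions is given. Of the 88, 72 were 3p arms, with a median of 13.0% guanine and 45% cytosine, against 26.3% and 22.7% over all miRNAs on the array with a sequence.

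The opposite set, 81 miRNAs, was detected on every array but array 1 of 0.5 Gy and of 1 Gy. Their median intensity was 97.1, 36.4 and 33.6 at 0 Gy, against -21.5, 30.1 and 35.0 at 0.5 Gy and -0.07, 55.3 and 29.3 at 1 Gy, where a value under 0 is below the local background. Their median composition was 45.5% guanine and 13.6% cytosine.

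Examples of the first set are printed for their shared run of pyrimidines. miR-207 had unscaled intensities of 66.1, 10.5 and 11.97 at 0 Gy, against 878, 10.2 and 5.47 at 0.5 Gy and 348, 7.88 and 55.5 at 1 Gy.
miR-207: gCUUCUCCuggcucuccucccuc
miR-211-5p: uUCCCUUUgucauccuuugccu
let-7b-3p: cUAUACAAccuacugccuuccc

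**Figure D5:**
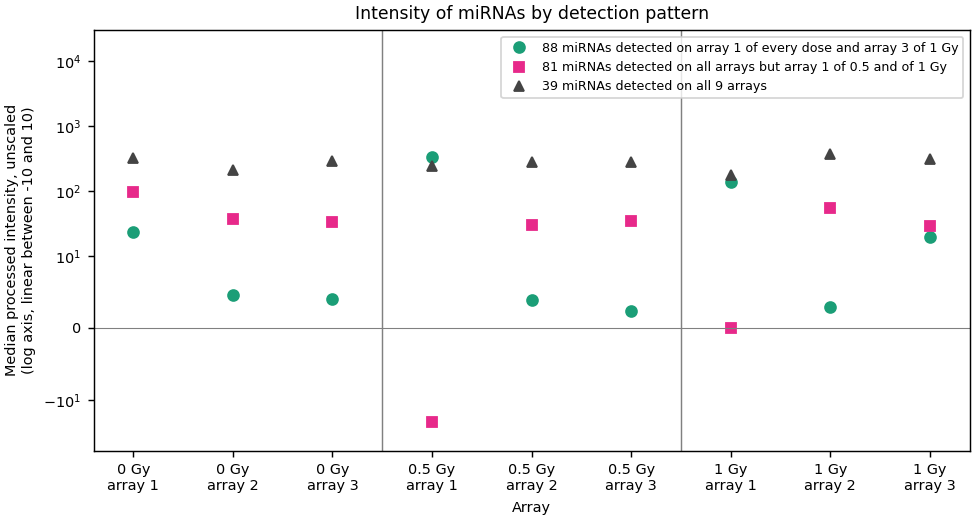
Median unscaled processed intensity (vertical axis, logarithmic except near 0) on each array for miRNAs grouped by the arrays that detected them. The 88 miRNAs (circles) reach 331 and 137 on array 1 of 0.5 and 1 Gy, where the 81 miRNAs (squares) lie at -21.5 and -0.07, while the 39 miRNAs detected on all arrays (triangles) stay between 175 and 372.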

How the data were processed

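Total RNA of the 9 samples was read on one-colour Agilent mouse miRNA arrays. Per the file headers, the deposited values are processed, background-subtracted signal intensity per spot from the scanner software (Feature Extraction 11.5.1.1, mm9 design), with detection and outlier marks; the deposited marks are flags, not measurements. Control spots (2164 of 58594) and outlier spots were left out, spots were averaged per probe, and each array was scaled on its 75th percentile, taken over the 45 probes that every array detected. Probes were summed per miRNA, raised to the floor (the 1st percentile of detected values, 6.92 scaled units) and log2-transformed. limma 3.58.1 compared the groups with all 9 arrays and no covariate, adjusted over 387 miRNAs; 9 arrays limit the precision. Steps were tested on simulated data in which arrays varied independently, unlike the arrays here. That test does not measure how small a difference this comparison could find.

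The members, the 19 miRNA lists and the tests were chosen with earlier results of these data known. Named were the 12 miRNAs of smallest p in each direction, every miRNA whose groups did not overlap, every gained or lost miRNA, and 2 to 4 tested members of each list. Of the 1881 miRNAs, 1608 matched exactly 1 distinct RefSeq mature sequence (GRCm38.p6). Of the 52 named, 49 did. A table of the series with 9 columns whose names match no sample was not used. Arrays lay on 3 slides, 6 of them (2 of each dose) on 1 slide. Alternatives were other scalings, background corrections, detection filters and floors, slide and replicate blocks, array weights, and leaving out arrays.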

Additional observations from a re-analysis of the deposited data

Results flagged for a closer look

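Among the 6 irradiated arrays, 59 sets of values were checked for an array far from the rest, and 5 had one; chance gives about 1 in 20. miR-199a-5p was 6.28 in log2 signal on array 1 of 0.5 Gy, where the next array had 5.08. miR-223-3p was 4.10 on array 1 of 1 Gy, below the next array at 4.85. miR-6934-5p was 3.88 on array 3 of 0.5 Gy against 2.85 on the next array. miR-3093-3p was 2.94 on array 2 of 1 Gy, while the next array was at the floor of 2.79. The software's labelling spike-in measure, on a log10 scale, was 0.829 on array 1 of 0.5 Gy and 1.93 on the next array, and it lay outside the software's own range on all 9 arrays. Of the 52 named miRNAs, 0 had every array of 1 irradiated dose above all 3 arrays of 0 Gy and every array of the other below them.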

How the results depend on the processing

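Under every alternative run, limma called 0 miRNAs for irradiated against 0 Gy and 0 at both doses. Of 1318 recomputed differences of named miRNAs, 1288 kept their sign and 30 turned; none was past the threshold, and causes were not tested. The count with an unadjusted p under 0.05 (9) became 2 scaled on all probes, 4 without scaling, 14 with normexp, 4 with total gene signal, 47 with array weights (a fit that stopped before convergence), 23 without array 1 of 0.5 Gy and of 1 Gy, 2 on the slide of 6 arrays, and from 1 to 34 with 1 array left out. The replicate block gave 23 and 0 called; of 9 correlations of deviations between arrays of one number, 7 were 0.228 to 0.975 and 2 were under 0.1 (0.081 and 0.072), so the numbers were not taken as pairing the arrays. By best correlation, 7 of 9 arrays matched an array of their own number. Because deviations were taken from the mean of each dose, an extreme array 1 also shapes those of arrays 2 and 3. These matches therefore cannot tell whether arrays of the same number are independent, which the tests assume. The count of miRNAs whose groups did not overlap (5) became 1 scaled on all probes, 2 without scaling and 3 with total gene signal. It was 0 among miRNAs detected on all 9 arrays and 3 among those detected on all arrays of 1 dose. Fewer arrays make non-overlap easier to reach: the count was 35 of 355 on the slide and 5 to 53 with 1 array left out. Without array 1 of every dose, a setting chosen after seeing the data, it was 19 of 244. The median difference was -0.51 over miRNAs detected on all arrays of 1 dose, -0.22 over those detected on at least 5 arrays (chosen after seeing the data), and 0.31 to 1.16 with 1 array left out. Lost miRNAs numbered 0 to 12 and gained 0 to 18 with 1 array left out. Lost were 0 without array 1 of 0.5 and 1 Gy, 0 without array 1 of every dose and 1 on the slide. Where 2 arrays of an irradiated dose were left, lost asked for detection on neither, a stricter rule. The difference in detected miRNAs per array (6.67) was -3.83 by spots well above background, -11.1 without array 1 of 0.5 and 1 Gy, -11.5 on the slide, and -25.5 to 57 with 1 array left out.

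Scaled on all probes, signs turned for miR-181a-5p (-0.41), miR-574-3p (-0.15), miR-3473c (-0.022) and miR-3473a (-0.037). Under quantile normalization they turned for miR-181a-5p (-0.033), miR-574-3p (-0.26), miR-3473c (-0.13) and miR-494-3p (0.057), and with normexp for miR-574-3p (-0.035), miR-3473c (-0.023) and miR-25-3p (-0.012). With total gene signal miR-25-3p was -0.079 and miR-710 0.12, and with array weights -0.085 and 0.085. With the slide as a block, and on the slide alone, miR-26b-5p was -0.14, let-7g-5p -0.16, miR-107-3p -0.18, miR-26a-5p -0.11 and miR-16-5p -0.23; miR-7056-5p was 0.016 on the slide alone. miR-710 was 0.039 without array 1 of 0.5 and 1 Gy. Without array 1 of every dose miR-494-3p was 0.21 and miR-25-3p -0.12, and miR-494-3p ran from -2.39 to 0.41 with 1 array left out. Signals near the floor carry no order.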
